A study of Mus musculus with 16 samples.

Results

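Blood of mice carrying a Hepa1-6 hepatoma was compared with blood of untreated mice on 8 of the 16 two-colour arrays of the series, those whose titles begin with "Blood No.". On each of the 8 arrays the Cy5 channel held RNA from blood of a tumour-bearing mouse, and the Cy3 channel held the reference, which the labels give as blood of an untreated C57Bl/6 mouse. The tumour-bearing mice had received cells of Hepa1-6, a mouse hepatoma line, under the skin, and blood was taken 10 days later. The other 8 arrays carried the tumour-infiltrating cell fraction against the same reference. The labels give C57Bl/6 and female for both channels, while the treatment text calls the mice athymic. Blood of either kind went into RNAlater, and whole-blood RNA was used with no step recorded that removed red cells or platelets. The 8 blood arrays are numbered 889, 890, 891, 893, 894, 896, 897 and 898, and the 8 arrays of the fraction carry the same numbers. No label says more about whether the blood arrays each came from their own animal. If they did not, the p-values measure a spread that may be technical. No dye-swapped array is among the 8, so a dye effect of a probe and a tumour effect cannot be told apart. The common reference also leaves out the spread between untreated animals.

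Whole blood RNA comes from several cell types at once. Neutrophils carry the granule proteins and chemokine receptors of the first innate response, B cells carry the antigen receptor and its signalling chain, and platelets and young red cells carry RNA left from their marrow precursors although they have no nucleus. A growing tumour is known to alter the output of marrow, in particular of neutrophils. In whole blood a change in a cell type's number and a change in its RNA per cell cannot be told apart.

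A check of the labels came first. Of the Y-linked genes Eif2s3y, Ddx3y and Kdm5d, none stood well above background in Cy5 on any of the 8 arrays, and each did so in Cy3 on all 8. Eif2s3y, a translation initiation subunit, had processed signals of 29.8 to 73.28 in Cy5 (median 42.53) and of 1758 to 2337 in Cy3 (median 2079). Ddx3y, an RNA helicase, had 29.83 to 51.49 in Cy5 and 660.1 to 977.1 in Cy3. Kdm5d, a histone demethylase, had 26.8 to 56.89 in Cy5 and 165.7 to 298.7 in Cy3. Xist, the RNA that coats the inactive X chromosome, had 16.76 to 396.1 in Cy5 and 12.36 to 28.15 in Cy3, and stood well above background in Cy5 on 7 of 8 arrays and in Cy3 on none. Eif2s3y was at least 3.45-fold lower in tumour-bearing blood, Ddx3y at least 2.01-fold and Kdm5d at least 1.33-fold, and Xist at least 1.42-fold higher. Each bound sets the brighter channel's mean against the dim channel's, taken on each array as the higher of the gene's own signal and the lowest signal that counted as well above background. For Eif2s3y the gene's own signal was the higher, so its bound equals its measured loess ratio of -1.79, as the normexp offset leaves it. The female label held for the tumour-bearing blood in these 4 genes, and the reference carried Y-linked RNA against its label. The sex of the mice and the tumour therefore cannot be told apart in any ratio to this reference below.

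**Figure D1:**
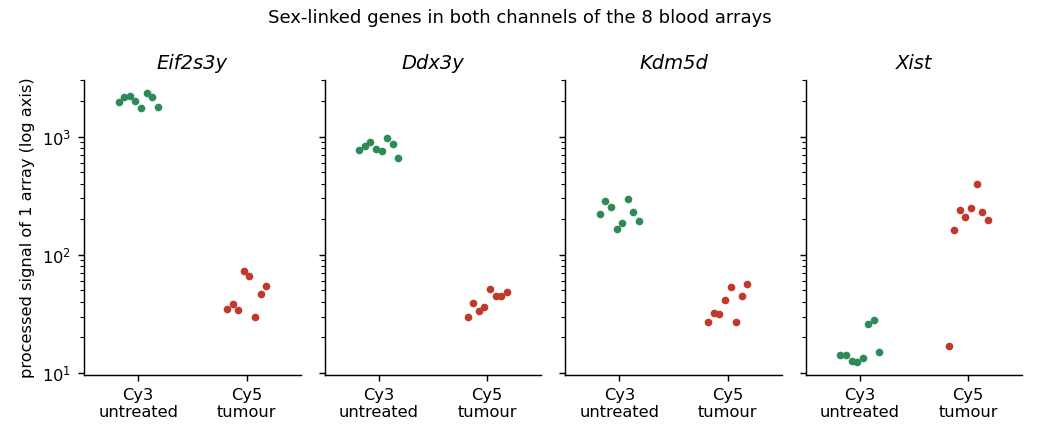
Processed signal (arbitrary units, log axis) of Xist, Eif2s3y, Ddx3y and Kdm5d on each of the 8 blood arrays, with 1 point per array and channel, Cy5 for tumour-bearing blood and Cy3 for the reference. The Cy3 points of Eif2s3y lie between 1758 and 2337 and its Cy5 points between 29.8 and 73.28, while Xist lies the other way round except on array 889.

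The arrays differed in quality. Between 24.8% and 36.3% of probes stood well above background in Cy5 and between 41% and 45.3% in Cy3, and no spot was saturated. Array 889 resembled the others least, with correlations of its ratios to theirs of 0.56 to 0.70. Arrays 889, 890, 891 and 893 shared slide 1 and the other 4 shared slide 2. The number of arrays limits the precision of every value below.

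The question put to the 8 arrays was which genes differ between blood of tumour-bearing and of untreated mice. A value below is the log2 ratio of tumour-bearing over untreated blood, so 1 is a doubling. A gene was called, and is said to have risen or fallen, when limma's moderated test against 0 gave an adjusted p (Benjamini-Hochberg, across every tested probe) under 0.05 and the mean change was at least 2-fold. After loess normalisation within arrays, which centres the ratios at every brightness, 92 of 12311 tested genes were called, or 0.747%. Of these, 62 rose (0.504%) and 30 fell (0.244%), so 67.4% were higher. Each of the 92 lay on the same side of 0 on all 8 arrays. The processed signals of the channels did not overlap for 91 of them, the exception being Olfr633, an olfactory receptor gene whose Cy3 signal was never well above background and whose Cy5 signal was so on 4 arrays. Small shifts were far more common: 2565 genes (20.8%) were higher and 3564 (28.9%) lower at the adjusted p alone, 49.8% in all.

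Every ratio depends on where 0 is set. When each array was instead centred on its median log2 ratio, 10 genes were called higher (0.0812%) and 884 lower (7.18%), 7.26% in all. All 62 rises stayed above 0 and 53 of them stayed past the adjusted p, which 5.49% of all tested genes passed in that direction, but the called genes had moved down by a median of 0.63. As a result 10 of the 62 rises and all 30 falls were called under both centrings. The median of all tested genes was -0.02 after loess and -0.16 after median centring. The probes that set the median were dim: 33227 of 41174 had a mean log2 intensity under 7, close to background, and their ratios lay near 0 on every array. With the arrays centred on the 9232 probes well above background on all 8 arrays in both channels (22.4% of probes), the median of all tested genes was 0.35, 74 genes were called higher (0.601%) and 56 lower (0.455%), and 50 of the 62 rises and 26 of the 30 falls were called again. Centring on spike-in RNA gave 12 higher and 799 lower (6.59% of genes in all, 6.49% lower). The log ratios in the deposited scanner files gave 326 higher (2.65%) and 630 lower (5.12%), 7.77% in all, and called 61 of the 62 rises and 30 of the 30 falls. More genes rose than fell with loess and with centring on well measured probes, and more fell than rose with the other 3 settings.

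**Figure D2:**
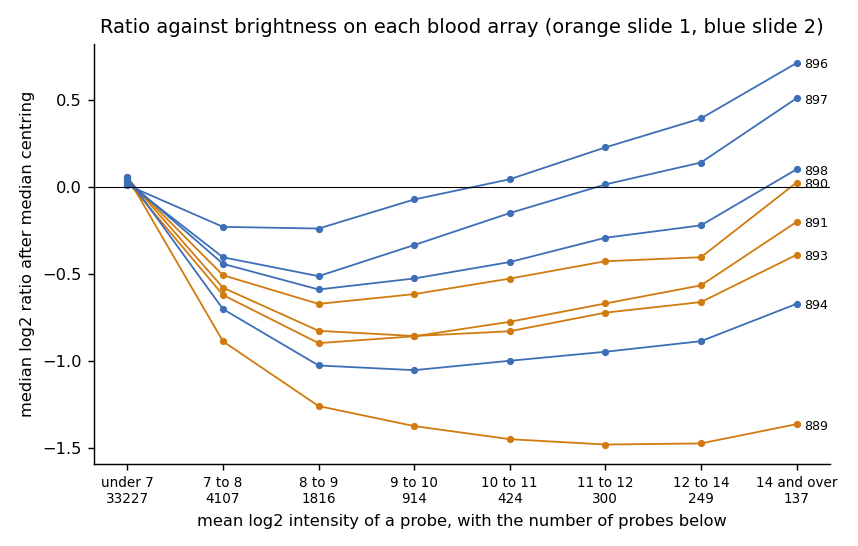
Median log2 ratio of tumour-bearing over untreated blood (vertical axis) by mean log2 intensity (horizontal axis) on each of the 8 blood arrays, 1 line per array after median centring, with slide 1 in orange and slide 2 in blue. Probes under a mean log2 intensity of 7 lie close to 0 on every array, and brighter probes leave 0 by amounts that differ between arrays, most on array 889.

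**Figure D3:**
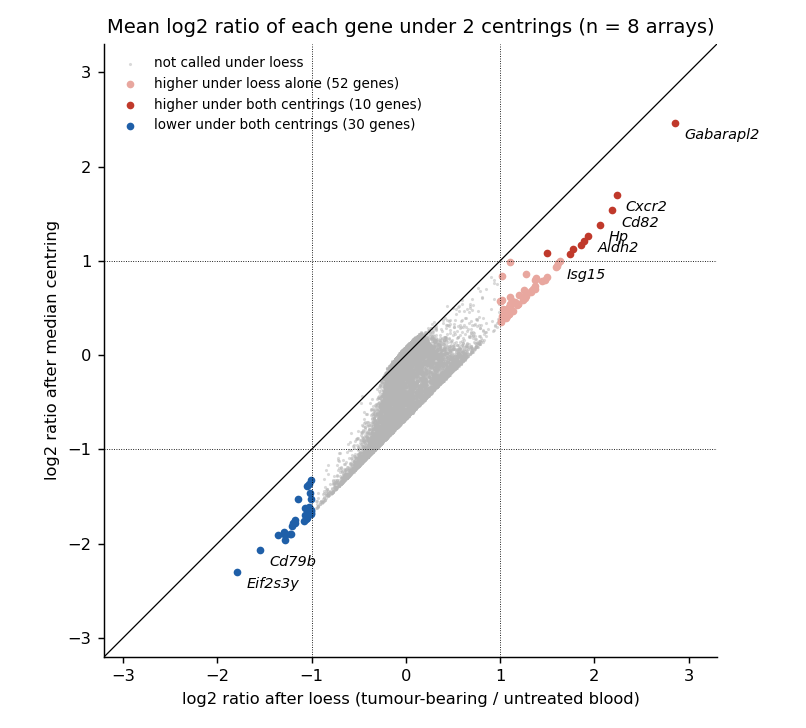
Mean log2 ratio over 8 blood arrays for each of the 12311 tested genes after loess (horizontal axis) and after median centring (vertical axis), with called genes coloured. The 62 rises and 30 falls of the loess fit lie on 1 side of 0 on both axes, and 10 of the rises pass 1 on both.

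The 10 genes that rose under both centrings were Gabarapl2, Cxcr2, Cd82, Hp, Aldh2, Swi5, Ncl, Hdc, Tkt and Rnf10. Gabarapl2, a ubiquitin-like protein attached to the membrane of forming autophagosomes, had log2 ratios of 2.51 to 3.08 with a median of 2.88, from processed signals of 362100 to 587400 in Cy5 and 54070 to 83750 in Cy3. No array came near 0. Its mean was 2.85 ± 0.05 (SE, n = 8; adjusted p = 2.28e-14) after loess and 2.46 after median centring. A second tested probe of Gabarapl2 gave 0.28, so the rise rests on 1 of its 2 probes.

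Cxcr2, the receptor by which neutrophils follow chemokines into tissue, had ratios of 1.64 to 3.03 (median 2.30), from Cy5 signals of 1457 to 4803 and Cy3 signals of 150.3 to 256.7. The lowest tumour-bearing signal was more than the highest reference signal on any array. Its mean was 2.24 ± 0.11 (SE, n = 8; adjusted p = 9.80e-10) after loess and 1.70 after median centring, and its second probe gave 0.91. Hp, which encodes haptoglobin, a haemoglobin-binding protein that neutrophils also store in granules, had ratios of 1.76 to 2.46 (median 2.01). All 8 arrays were high, with signals of 4993 to 9643 against 801.5 to 1421. The mean of Hp was 2.06 ± 0.06 (SE, n = 8; adjusted p = 5.22e-12), and 1.38 after median centring. Hdc, the enzyme that makes histamine, had ratios of 1.51 to 2.21 (median 1.79), from signals of 2942 to 9852 against 730.9 to 1785. The spread of its signals was wide in both channels, and they did not overlap. Its mean was 1.77 ± 0.07 (SE, n = 8; adjusted p = 8.95e-11) after loess and 1.12 after median centring.

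Cd82, a tetraspanin of the leukocyte surface, had ratios of 1.95 to 2.34 (median 2.20) and a mean of 2.19 ± 0.05 (SE, n = 8), or 1.53 after median centring. Its signals of 10030 to 15570 in Cy5 lay well clear of 2092 to 2642 in Cy3. Aldh2, the mitochondrial aldehyde dehydrogenase, had ratios of 1.61 to 2.28 (median 1.93) and a mean of 1.94 ± 0.06 (SE, n = 8), or 1.26 after median centring. Tkt, the transketolase of the pentose phosphate pathway, had ratios of 1.54 to 1.94 (median 1.77) and a mean of 1.75 ± 0.05 (SE, n = 8), or 1.08 after median centring, but its second probe gave -0.05. These 3 genes were high on every array. Swi5, a partner protein in homologous recombination, had ratios of 1.75 to 1.99 (median 1.88), the narrowest range of the 10, and its second probe gave 1.58. Ncl, nucleolin, had ratios of 1.51 to 2.05 (median 1.86) on the probe that stands for it and 1.79, 0.15 and -0.14 on its other probes. With the median over a gene's probes in place of the brightest one, Ncl and Tkt were no longer called. Rnf10, a RING finger protein, had ratios of 1.21 to 1.72 (median 1.48) and a mean of 1.50 ± 0.05 (SE, n = 8), and after median centring a mean of 1.08 that ranged from 0.01 to 2.05 over the arrays.

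**Figure D4:**
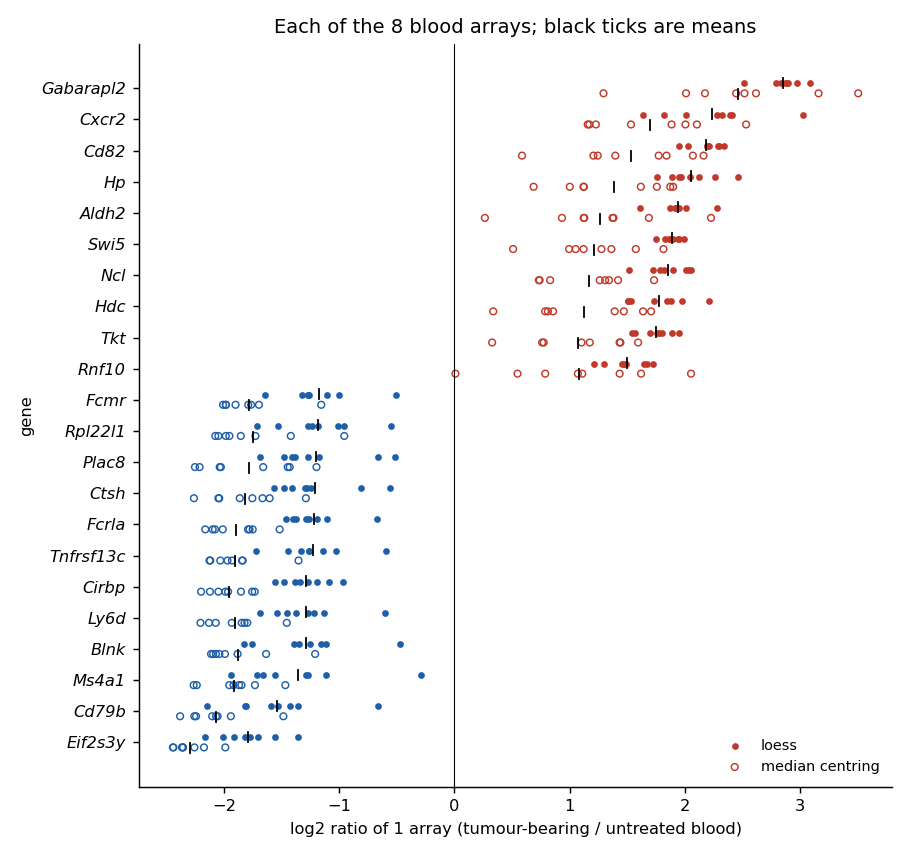
Log2 ratio of tumour-bearing over untreated blood (horizontal axis) on each of the 8 blood arrays for the 10 genes that rose under both centrings (red) and the 12 largest falls (blue), with filled points after loess, open points after median centring and a black tick at each mean. No point of a risen gene lies below 0 and none of a fallen gene above it, under either centring.

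Array 889 gave the lowest ratio for 25 of the 62 risen genes and the ratio nearest 0 for 25 of the 30 fallen ones. The median ratio of the fallen genes was -0.55 on array 889 and -1.44 on array 897. Without array 889, 68 genes rose and 37 fell, and 59 of the 62 rises and all 30 falls were called again. Slide 1 alone called 49 higher and 12 lower genes, among them 44 of the 62 and 12 of the 30, and slide 2 alone called 96 higher and 56 lower, among them 60 of the 62 and all 30.

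Of 27 tested neutrophil genes, 7 rose and none fell: Cxcr2, Hp, Il1r2, Mmp8, S100a8, Stfa2l1 and Csf3r. The median of the 27 was 0.63 after loess, beside -0.02 over all tested genes, and 0.19 after median centring, under which only Cxcr2 and Hp of the 7 were called. At the adjusted p alone 22 of the 27 were higher and 2 lower after loess, beside 20.8% higher among all genes, of which 0.504% rose. After median centring 9 of the 27 were higher and 2 lower at the adjusted p alone, beside 5.49% of all genes higher. Under that centring 1 of the 27 was called lower, beside 7.18% of all genes. S100a8, a subunit of the calcium-binding calprotectin, had ratios of 0.37 to 1.90 (median 1.06), the widest of the 7, and a mean of 1.11 ± 0.12 (SE, n = 8). Its array values ran from little change to far above a doubling, and without array 898 it was not called. Mmp8, the neutrophil collagenase, had ratios of 0.63 to 1.85 and a mean of 1.11. Csf3r, the receptor for granulocyte colony-stimulating factor, had ratios of 0.66 to 1.55 and a mean of 1.09. Stfa2l1, a stefin protease inhibitor, had ratios of 0.55 to 1.56. Mmp8 and Csf3r lost their calls on slide 1 alone, where their means were 0.93 and 0.98.

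The other neutrophil genes had varied values. The partner of S100a8, S100a9, had a mean of 0.93 with arrays from 0.04 to 1.56, and Mmp9, a gelatinase, had 0.79 with arrays from 0.26 to 1.53. Lcn2 and Ltf, genes of the specific granules, had 0.45 and 0.43, and Retnlg, a secreted resistin-like protein, had 0.40. Mpo and Prtn3, azurophil granule genes transcribed chiefly in marrow precursors, had -0.06 and -0.08, and Mpo reached no array's threshold over background in Cy5. Chil3, a lectin of neutrophils and macrophages, was the lowest of the 27 at -0.41 after loess with 2 of 8 arrays above 0, and -1.08 after median centring. Outside the list, and named after their values were seen, 2 more genes of neutrophils were called. Lrg1, a secreted leucine-rich glycoprotein stored in neutrophil granules, rose, with arrays from 0.94 to 1.90 (median 1.37) and a mean of 1.38 ± 0.07 (SE, n = 8). Serpinb1a, which inhibits neutrophil elastase, fell, with arrays from -1.42 to -0.52 and a mean of -1.03 ± 0.08 (SE, n = 8). Without array 897 Serpinb1a was not called.

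Genes of autophagy and of the lysosomal surface gave further rises. Of 40 tested autophagy genes 3 rose and none fell, with a median of 0.06 after loess and -0.12 after median centring. These were Gabarapl2, Wipi1, which binds the lipid of the forming autophagosome, and Gabarap, a close relative of Gabarapl2. Over all tested genes 0.504% rose and 0.244% fell. At the adjusted p alone 18 of the 40 were higher and 7 lower, beside 20.8% and 28.9% of all genes. Wipi1 had ratios of 0.71 to 1.65 (median 1.35) and a mean of 1.33 ± 0.08 (SE, n = 8), and its second probe gave 0.61. Gabarap had ratios of 0.89 to 1.41 (median 1.19) and a mean of 1.18 ± 0.05 (SE, n = 8), and its second probe gave 1.15. Both were high on all 8 arrays after loess, and after median centring both had an array below 0 and neither was called. Other members of the Gabarapl2 family were closer to 0, with Gabarapl1 at 0.38 and Map1lc3b at 0.27. Chosen after their values were seen, Rraga and Lamtor2 also rose. Rraga, a GTPase that brings the growth regulator mTORC1 to the lysosome, had ratios of 1.38 to 1.82 (median 1.67) and a mean of 1.63 ± 0.05 (SE, n = 8), or 0.996 after median centring, just short of a call. Lamtor2, a subunit of the scaffold that holds such GTPases, had a mean of 1.08. Other tested genes of that scaffold and pathway were not called, with Lamtor1 at -0.17, Lamtor3 at -0.56, Rragc at -0.15, Rragd at 0.07, Mtor at -0.12 and Rptor at -0.03.

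Platelet genes gave 4 rises and no fall among 31 tested, with a median of 0.18 and with 20 higher and 5 lower at the adjusted p alone. Over all tested genes 0.504% rose, and 20.8% were higher and 28.9% lower at the adjusted p alone. Itga2b and Itgb3, the chains of the platelet fibrinogen receptor, had means of 1.45 ± 0.06 and 1.096 ± 0.06 (SE, n = 8). The arrays of Itga2b ran from 1.08 to 1.67 and those of Itgb3 from 0.78 to 1.35. Gp5, part of the receptor for von Willebrand factor, had ratios of 0.77 to 1.47 and a mean of 1.19, and F13a1, the A subunit of clotting factor XIII, had 1.01 to 1.42 and a mean of 1.24. All 4 were above 0 on every array after loess, and none was called after median centring, where the median of the list turned to -0.32. The abundant platelet chemokine genes did not share the direction: Pf4 had a mean of -0.29 and Ppbp of -0.21, both past the adjusted p. Gp1ba and Gp1bb, other chains of the receptor that includes Gp5, were not called. Their channels overlapped, with median processed signals of 6008 in Cy5 and 6682 in Cy3 for Gp1ba. For Gp1bb the medians were 3030 and 2818.

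Most red-cell genes lay above 0 after loess, by less than 2-fold. The 20 tested genes of the red-cell membrane had a median of 0.36 with 15 higher and 1 lower at the adjusted p alone, and the 19 erythroid factors a median of 0.36 with 12 higher and 1 lower, beside 20.8% higher and 28.9% lower over all genes. The 13 genes of globin and gas transport had a median of 0.33, and the 17 of haem synthesis and iron import a median of 0.21. After median centring the medians were -0.15, -0.14, 0.02 and -0.27 in that order, so the direction of these lists turned or vanished with the centring. Stom, which encodes the membrane protein stomatin, had ratios of 0.75 to 1.33 and a mean of 1.06. Aqp1, the water channel, had 0.75 to 1.42 and a mean of 1.01, and was not called without array 896 or without array 898. Rnf10, already described, was the called member of the erythroid factors. Alas2, the first enzyme of haem synthesis in red-cell precursors, had 0.68. The globin genes Hba-a1 and Hbb-bt had 0.43 each. Hba-a1 had overlapping channels, with signals of 2753000 to 4036000 in Cy5 and 2322000 to 3986000 in Cy3. Outlier spots of Hbb-bt were left out, so not every array gave it a value. Outside the lists, Hebp1, a haem-binding protein picked after its value was seen, had 1.18 to 2.04 and a mean of 1.60 ± 0.08 (SE, n = 8).

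Of 38 tested interferon-stimulated genes, Isg15 and Oasl2 rose and none fell, with a list median of 0.10 after loess and -0.34 after median centring. At the adjusted p alone 16 were higher and 7 lower, beside 20.8% and 28.9% of all genes, of which 0.504% rose. After median centring 4 of the 38 were called lower and none higher, beside 7.18% of all genes called lower. Isg15, a ubiquitin-like modifier, had ratios of 1.28 to 2.004 (median 1.59), from signals of 14890 to 22760 against 4820 to 5969. Its mean was 1.61 ± 0.07 (SE, n = 8; adjusted p = 1.42e-10) after loess and 0.97 after median centring, short of a call. Oasl2, of the oligoadenylate synthetase family, had ratios of 1.01 to 1.76 and a mean of 1.33. Other members lay on both sides of 0. Irf7, a transcription factor of the response, had 0.76, Ifit1 had 0.05 with arrays from -0.12 to 0.24, Stat2 had -0.51 and Ifi27l2a had -0.75. The DNA upstream of the start of transcription shows letters that some of these genes have in common. The 250 bases before the start of Isg15 (chr4:156200819-156201068, minus strand) and Ifit1 (chr19:34640639-34640888, plus strand) in RefSeq's GRCm38.p6 are printed 5′ to 3′, chosen because one rose and the other did not. Capitals mark matches on either strand to the core of the interferon-stimulated response element, taken as GAAA, any 2 bases and GAAA again, with overlapping matches run together.
Isg15: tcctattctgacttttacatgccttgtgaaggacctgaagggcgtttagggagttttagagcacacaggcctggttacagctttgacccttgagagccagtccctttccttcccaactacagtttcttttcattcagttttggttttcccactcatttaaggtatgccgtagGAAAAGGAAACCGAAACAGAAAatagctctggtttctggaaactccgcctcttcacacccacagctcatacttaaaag
Ifit1: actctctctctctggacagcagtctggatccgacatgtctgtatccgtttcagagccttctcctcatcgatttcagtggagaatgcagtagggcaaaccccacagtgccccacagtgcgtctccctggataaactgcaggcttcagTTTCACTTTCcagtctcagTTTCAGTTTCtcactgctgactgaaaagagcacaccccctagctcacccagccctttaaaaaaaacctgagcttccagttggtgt
The matches begin 78, 72 and 66 bases before the start in Isg15 and 104 and 85 bases before it in Ifit1. A match lay in such a window of 12 of 29 interferon-stimulated genes with a window (41.4%) and in 3.46% of all 27025 genes. Of the called genes with a window, 3 of 54 that rose (Isg15, Apol10a and Itga2b) and 4 of 23 that fell (Ctss, Fcrla, Ifi211 and Rnase6) had a match. So the letters were present in genes that rose, fell and did neither, and a match of letters is a description and not a site in use.

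Genes of interleukin-1 and of the immediate response to stimulation gave a few rises. Il1b, the cytokine, had ratios of 0.96 to 1.93 (median 1.29) and a mean of 1.34 ± 0.09 (SE, n = 8). Il1r2, its decoy receptor on neutrophils and also a member of the neutrophil list, had 0.71 to 1.92 (median 1.17) and a mean of 1.27, and its second probe gave 0.28. The reading of both was high on all 8 arrays, and neither was called after median centring. They were the called members of 20 tested genes, whose median was 0.08 after loess. At the adjusted p alone 7 of the 20 were higher and 6 lower, beside 20.8% and 28.9% of all genes. Over all genes 0.504% rose and 0.244% fell. Il1rn, the receptor antagonist, had 0.60, and Casp1, the protease that matures interleukin-1, had -0.48. Among 37 immediate-early and NF-kappaB genes, Socs3 and Dusp1 rose, Klf4 fell, and the median was 0.03. At the adjusted p alone 12 of the 37 were higher and 15 lower. After median centring 9 of the 37 were called lower and none higher, beside 7.18% of all genes called lower. Socs3, a feedback inhibitor of cytokine signalling, had ratios of 0.998 to 1.66 and a mean of 1.37 ± 0.06 (SE, n = 8). Dusp1, a phosphatase of MAP kinases, had ratios of 0.85 to 1.97 and a mean of 1.27 ± 0.11 (SE, n = 8). Fos, the immediate-early factor, had ratios of 0.24 to 1.15 and a mean of 0.58. Klf4, a transcription factor of monocytes, had ratios of -1.22 to -0.52 and a mean of -1.01, and was not called without array 890, 891, 894, 896 or 898. Adam8, a metalloprotease of leukocytes, rose with 0.94 to 1.89 and a mean of 1.37. Cd300lf, an inhibitory receptor of myeloid cells picked after its value was seen, rose with 1.12 to 1.92 and a mean of 1.50.

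Of 31 tested B-cell genes, 8 fell and none rose under loess, all 8 also fell under median centring, and the list median was -0.70 after loess and -1.37 after median centring. At the adjusted p alone 28 of the 31 were lower and 1 higher, beside 28.9% lower among all genes, of which 0.244% fell. The list median lay between -0.71 and -0.37 on the arrays, below 0 on all 8. Cd79b, a signalling chain of the antigen receptor, had ratios of -2.14 to -0.66 (median -1.56), from signals of 17130 to 29690 in Cy5 and 53050 to 79060 in Cy3. All arrays were low and the channels did not overlap. Its mean was -1.54 ± 0.11 (SE, n = 8; adjusted p = 4.57e-08), and -2.07 after median centring. Ms4a1, which encodes CD20, had ratios of -1.94 to -0.29 (median -1.42) and a mean of -1.35 ± 0.13 (SE, n = 8; adjusted p = 6.13e-07), or -1.91 after median centring. Blnk, the adaptor that links the receptor to its downstream enzymes, had ratios of -1.83 to -0.47 (median -1.30) and a mean of -1.29 ± 0.11 (SE, n = 8). Array 889 was the nearest to 0 for most of these genes.

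The other called B-cell genes were Ly6d, a surface protein, with a mean of -1.28 and arrays from -1.68 to -0.61, and Tnfrsf13c, the receptor for the survival factor BAFF, with -1.22 and arrays from -1.72 to -0.60. Fcrla, an Fc receptor-like protein, had -1.22 with arrays from -1.46 to -0.67. Fcmr, the receptor for IgM, had -1.17 with arrays from -1.65 to -0.51, and Ly86, the partner of the Toll-like protein Cd180, had -1.07 with arrays from -1.35 to -0.52. Vpreb3 at -0.94 and Cd22, an inhibitory co-receptor, at -0.91 had similar ratios just short of 2-fold. Cd24a was the member that was higher, at 0.32. On slide 1 alone 7 of the 31 were called lower, beside 12 of all 12311 genes, and on slide 2 alone 12, beside 56.

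The octamer is a short sequence of immunoglobulin promoters, read by the Oct factors. The 250 bases before its start (chr19:40994222-40994471, minus strand, GRCm38.p6, RefSeq) are printed because Blnk was the called B-cell gene with a match, in capitals, to ATGCAAAT on either strand.
Blnk: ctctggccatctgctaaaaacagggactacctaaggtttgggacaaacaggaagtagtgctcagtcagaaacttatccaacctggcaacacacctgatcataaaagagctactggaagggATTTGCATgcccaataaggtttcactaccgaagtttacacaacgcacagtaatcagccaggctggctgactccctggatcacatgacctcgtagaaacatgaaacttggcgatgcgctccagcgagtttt
The match begins 130 bases before the start. Among tested B-cell genes with a window, 2 of 24 held the octamer (8.33%, Blnk and Vpreb3), beside 1.81% of 27025 genes. Of the 8 B-cell genes that fell, 5 had a window, and Blnk was the 1 with a match.

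Antigen-presentation genes lay lower by less than 2-fold after loess. Of 12 tested class II genes none was called, the median was -0.37, and 9 were lower and 1 higher at the adjusted p alone, beside 28.9% and 20.8% of all genes. H2-DMb1, which helps load peptide, had ratios of -1.32 to -0.54 and a mean of -0.997, at the edge of a call. Cd74, the invariant chain, had -0.63, and Ciita, the master regulator of the class, had -0.53. Without array 889, 1 of the 12 was called lower, beside 37 of all 12311 genes. After median centring 5 of the 12 were called lower, beside 7.18% of all genes. Of 15 genes of class I and the immunoproteasome none was called, and the median was -0.27. Psmb10, an immunoproteasome subunit, had -0.88, while Tap2, a peptide transporter, had 0.51. B cells, monocytes and dendritic cells all express class II genes.

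Genes of the translation machinery also lay lower. Of 79 ribosomal protein genes 4 fell and none rose, with a median of -0.42 after loess and -0.90 after median centring. At the adjusted p alone 64 were lower and 2 higher, beside 28.9% lower and 20.8% higher over all genes, of which 0.244% fell. Rpl22l1, a paralogue of a large-subunit protein, had ratios of -1.71 to -0.55 (median -1.21) and a mean of -1.18 ± 0.09 (SE, n = 8). Rps18 had -1.71 to -0.32 (median -1.27) and a mean of -1.15 ± 0.11 (SE, n = 8), with -0.89 on its second probe. Rps27 had -1.74 to -0.04 and a mean of -1.04, and Rps20 had -1.57 to -0.22 and a mean of -1.01. Their ratios spread widely between arrays, and none lay above 0. On slide 1 alone 1 of the 79 was called lower and on slide 2 alone 5, beside 12 and 56 of all 12311 genes. Rps27 was not called without array 896 or array 897, nor Rps20 without array 896, 897 or 898. Probes of ribosomal genes can share signal with near-identical pseudogenes. In the other direction stood Eef2, the elongation factor that moves the ribosome, with ratios of 1.26 to 1.67 (median 1.49), a mean of 1.47 ± 0.05 (SE, n = 8), and 1.20 and 0.13 on its other probes. Of 38 translation factors it alone was called after loess, with a list median of -0.13, and Eif3l had -0.94.

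No member of the proteasome (42 tested, median -0.24) or of the respiratory chain (75 tested, median -0.19) was called after loess. At the adjusted p alone, 28 proteasome genes were lower and 4 higher, and 46 respiratory-chain genes were lower and 11 higher, beside 28.9% lower and 20.8% higher over all genes. Psma7, a proteasome core subunit, had -0.90 and Psmd4, a ubiquitin receptor of the same particle, had 0.73. After median centring 11 proteasome and 19 respiratory-chain genes were called lower, beside 7.18% of all genes.

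Among 33 lysosomal genes Ctsh and Ctss fell and none rose, beside 0.244% fallen and 0.504% risen over all genes. At the adjusted p alone 14 of the 33 were lower and 8 higher, beside 28.9% and 20.8% of all genes. Ctsh, a cathepsin, had ratios of -1.57 to -0.56 (median -1.29) and a mean of -1.21 ± 0.09 (SE, n = 8). Ctss, the cathepsin that trims the invariant chain of class II molecules, had ratios of -1.42 to -0.30 (median -1.22) and a mean of -1.07 ± 0.10 (SE, n = 8). Both were below 0 on all arrays and called under both centrings, but neither was called on slide 1 alone. Psap, which encodes lysosomal saposins, had 0.93 and Grn 0.68. Cirbp, a cold-inducible RNA-binding protein, fell with ratios of -1.56 to -0.97 (median -1.31) and a mean of -1.28 ± 0.06 (SE, n = 8). Its range over the arrays was narrower than those of the fallen B-cell genes. Plac8, a cysteine-rich protein of leukocytes, fell with ratios of -1.69 to -0.51 and a mean of -1.20 ± 0.10 (SE, n = 8).

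Several called genes belonged to none of the lists and were named after their values were seen. Ormdl3, a regulator of sphingolipid synthesis, rose with a mean of 1.60, Atf5, a stress-response transcription factor, with 1.20, and Picalm, a clathrin adaptor, with 1.13. Arpc1b, an actin-nucleating subunit, and Dgat2, which completes triglyceride synthesis, had 1.03 and 1.02. Other probes gave 0.35 for Picalm and -0.11 and 0.14 for Dgat2. Among the falls, Ktn1, a kinesin-binding membrane protein, had -1.08 and Smarca4, the ATPase of a chromatin remodeller, had -1.05. Their other probes lay closer to 0, at -0.03 for Ktn1 and at -0.11 and -0.09 for Smarca4. Myo1g, a myosin of blood cells, had -1.02, and Top2b, a DNA topoisomerase, had -1.01. Over all called genes, 25 had other tested probes; for 19 of them every other probe had the same sign, for 6 another probe was called in the same direction, and for none was another probe called in the opposite one.

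Markers of the other blood cells showed few calls after loess, beside 0.504% risen and 0.244% fallen over all tested genes. After median centring 8 of 27 T-cell genes and 4 of 26 monocyte genes were called lower, beside 7.18% of all genes. The medians of these lists were then -0.62 and -0.44. Values given next are those after loess unless said otherwise. Of 26 monocyte genes 1 fell (Ctss) and none rose, with a median of -0.12; Ccr2, the chemokine receptor of inflammatory monocytes, had -0.66, Lyz2, lysozyme, had -0.61, and Csf1r had -0.15 with overlapping channels. Of 27 T-cell genes none was called, with a median of -0.07. Cd3e, a signalling chain beside the T-cell receptor, had ratios of 0.17 to 0.64 and a mean of 0.44 after loess but -0.01 after median centring, with signals of 562.4 to 1097 in Cy5 and 300.4 to 605.2 in Cy3, so T-cell RNA was measured in blood of mice that the treatment text calls athymic. Cd6 and Cd5 had -0.63 and -0.55. Of 24 natural killer and cytotoxic genes Tbx21, a transcription factor of these cells, rose, with ratios of 0.65 to 1.68 and a mean of 1.13, and the median was 0.16. After median centring Tbx21 was not called and the list median was -0.01. Gzmb, a granzyme, had 0.78 and Ccl5, a chemokine, had 0.82, while Ncr1 had -0.09 with Cy5 well above background on 1 array. Hdc was the called member of 17 mast-cell, basophil and eosinophil genes; Cpa3 and Mcpt8 were not well above background in either channel on any array, and Ms4a2 had 0.21. Zbtb46, a factor of classical dendritic cells, had a mean of 1.19 and was the called member of 14 genes, with 0.01 on its second probe. It was not called after median centring. Of 19 liver and hepatoma genes none was called. Afp, the fetal serum protein made by hepatomas, had ratios of -0.34 to -0.15 and a mean of -0.24, with signals of 406.8 to 672.7 in Cy5 and 653.6 to 888.9 in Cy3 that overlapped, and Alb, albumin, was not well above background in either channel on any array.

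**Figure D5:**
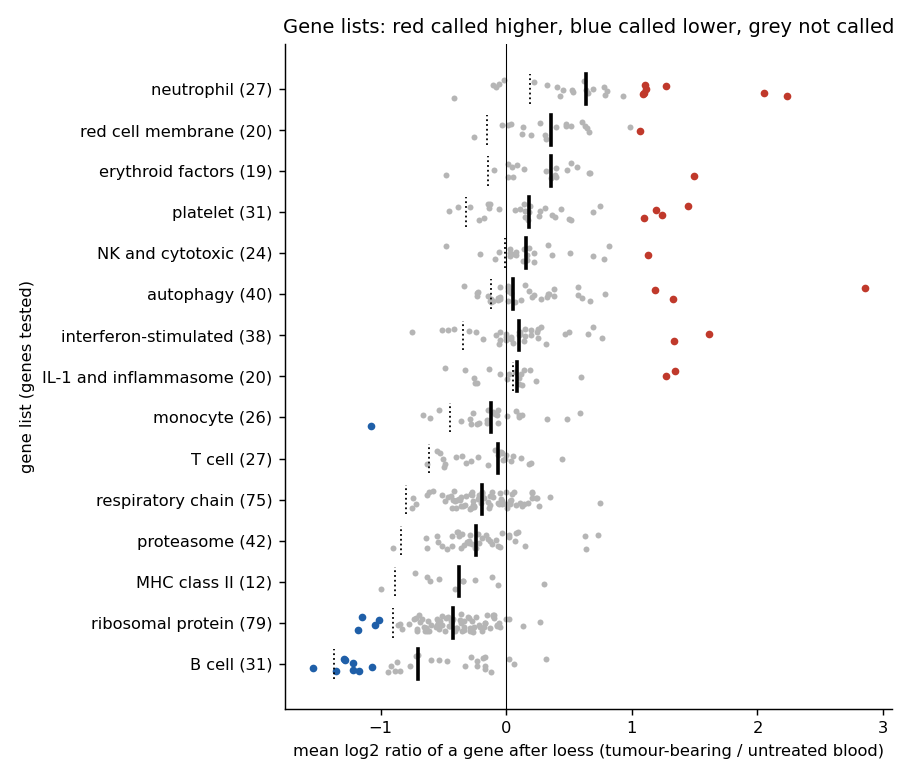
Log2 ratio of tumour-bearing over untreated blood for the members of the main gene lists, 1 point per tested gene (mean of 8 blood arrays after loess), with called genes coloured, the list's median after loess as a solid line and after median centring as a dotted line. Neutrophil genes have a median of 0.63 and B-cell genes of -0.70 after loess, and the platelet median turns from 0.18 to -0.32 with the centring.

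The infiltrating fraction was measured against the same reference, so its values are given side by side with the test of the difference over the 16 arrays. The series used 4 slides of 4 arrays each, and the blood arrays filled slides 1 and 2. All arrays of the fraction were therefore on other slides, and slide and source cannot be told apart in any of these differences. That difference was called for 2935 of 12311 genes, or 23.8%, with 1485 higher and 1450 lower in the fraction after loess and 7377 higher and 334 lower after median centring. The values that follow are those after loess. Cd79b was -1.54 in blood and -5.60 in the infiltrating fraction (difference -4.06), Ms4a1 was -1.35 and -7.00 (-5.65), and Blnk was -1.29 and -2.64 (-1.35). After median centring the differences of Cd79b and Ms4a1 were -1.42 and -3.05, and that of Blnk turned to 1.39. Gabarapl2 was 2.85 in blood and -2.80 in the fraction (-5.66), Hp 2.06 and -1.01 (-3.07), and Cxcr2 2.24 and -0.04 (-2.28), and after median centring these differences were -3.10, -0.78 and -0.84. Il1b was 1.34 and 1.01 (-0.34) and Rraga 1.63 and 1.32 (-0.32), and neither difference was called after loess. After median centring they turned to 2.44 and 2.28, so their direction depends on the centring. Ctsh was -1.21 in blood and 0.86 in the fraction (2.07), and Ctss -1.07 and 2.04 (3.12), with differences of 4.88 and 5.91 after median centring.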

How the data were processed

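RNA of 8 blood samples (Cy5) was hybridised with an untreated-blood reference (Cy3) on Agilent whole-genome mouse arrays, per the labels. The deposited scanner files hold spot intensity, written by Feature Extraction 10.5.1.1 per the file headers and 9.1.3.1 per the submitters' processing notes, and the authors' log10 ratio of Cy5 over Cy3, which equals the deposited value table. Median spot and background intensities were corrected with normexp (offset 50), which pulls ratios of dim probes towards 0, then normalised by loess within arrays with control and outlier spots (87 to 153 per array) left out, in limma 3.58.1 (R 4.3.3). Probes well above background on enough arrays were tested: 26509 of 41174, standing for 12311 genes. Probes were named through RefSeq accessions (GRCm38.p6): 23374 had 1 symbol and 17800 none. The tested probe of highest mean intensity stood for a gene. Ratios were tested against 0 with lmFit and eBayes, and infiltrating against blood over 16 arrays. Scripts were tested on simulated data. Genes and the 47 lists, 1196 of whose 1308 entries were tested, were chosen with earlier results of these data known. Named genes are the 12 largest rises and falls, genes called under both centrings, up to 4 called and the first tested members per list, and fixed markers; other list members were picked after their values were seen. Alternatives changed centring, background correction, scaling, filter, probe choice, slide, replicates and fold threshold. Processed signals, dye-normalised by Feature Extraction, are given as levels. Values of a few genes are not reported here.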

Additional observations from a re-analysis of the deposited data

Results flagged for a closer look

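Of 197 named genes checked for an array far from the other 7, 3 were found. Chance alone would flag about 1 in 20 of the genes checked, which is more than were found. Array 893 had 0.51 for Eef1d, an elongation factor subunit, while the others had 0.26 to 0.36. Array 889 had -0.67 for Fcrla, while the others had -1.46 to -1.10. Array 897 had 0.48 for Ms4a2, a chain of the IgE receptor, while the others had 0.11 to 0.26.

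Of the 24 leading genes, 22 differed between the infiltrating fraction and blood in the test of the difference itself (limma over 16 arrays) after loess. Over all tested genes 23.8% did. The 24 were picked for large ratios in blood, and the same blood values enter the difference. The count of 22 is therefore no separate result about these genes. The direction depended on the centring for 5 of the 22: after median centring the difference was 1.75 for Cd82, 1.23 for Swi5, 1.37 for Ncl, 0.81 for Tkt and 1.39 for Blnk. Among the risen genes the difference after loess, fraction minus blood, was -5.66 for Gabarapl2, -2.28 for Cxcr2, -1.01 for Cd82, -3.07 for Hp, -3.54 for Aldh2, -1.61 for Swi5, -1.55 for Ncl, -2.94 for Hdc, -2.06 for Tkt, -3.63 for Isg15 and -2.76 for Hebp1. Among the fallen genes of B cells it was -4.06 for Cd79b, -5.65 for Ms4a1, -1.35 for Blnk, -3.21 for Ly6d, -3.60 for Tnfrsf13c, -3.86 for Fcrla and -4.31 for Fcmr. Among the other fallen genes it was 2.07 for Ctsh, 1.30 for Plac8, 2.02 for Rpl22l1 and 1.54 for Rps18, all higher in the fraction.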

How the results depend on the processing

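The counts of called genes depended on centring and background correction. Against 92 called in all with loess, median centring called 894 (10 higher, 884 lower), spike-in centring 811 (12 and 799), the deposited ratios 956 (326 and 630), no background correction 53 (38 and 15), subtraction with a floor 403 (183 and 220), slide 1 alone 61 (49 and 12), slide 2 alone 152 (96 and 56) and no fold threshold 6129 (2565 and 3564). Centring on well measured probes, chosen after seeing the data, called 130, with 56 lower. Genes called under that setting and under median centring alike numbered 808, 87, 22, 288, 17, 88 and 3741 for spike-in centring, deposited ratios, no background correction, subtraction, slide 1, slide 2 and no fold threshold, and 66 for well measured probes, against 40 with loess. Genes called between the infiltrating fraction and blood, 2935 with loess, numbered 7711 with median centring, 6768 with spike-in centring, 7011 with the deposited ratios, 5309 with subtraction, 9219 with no fold threshold and 7113 with well measured probes. Why these settings differ was not tested beyond the shift of 0 given with the 2 centrings. Leaving out each blood array in turn gave 75 to 105 called genes, 51 to 70 higher and 20 to 37 lower, 30 to 52 under both centrings, and 2896 to 2985 between the sources. Of the called genes, 49 rises and 18 falls were called in all 8 of these fits. A random slide block gave 62 and 30 again. Sample numbers were not taken to pair the sources: same-numbered arrays correlated at -0.17 to 0.20, not all above 0.1. As a hint from the data, 5 of 8 matched their own number best, and the replicate block called 2935 genes. No called ratio of a named gene turned sign. Of the named genes' values, 4070 kept their sign and their side of the threshold, 108 lost a call, 48 gained one and 241 turned sign while called in neither setting, 49 of them under median centring and 47 under spike-in centring. The normexp offset limits the ratio of dim genes: with an offset of 20 in place of 50, Eif2s3y went from -1.79 to -2.40 and Cxcr2 from 2.24 to 2.71.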
